A study of Homo sapiens with 6 samples.

Results

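The miR-106a-363 cluster is a run of 6 miRNA hairpins on the X chromosome, and 10 mature miRNAs that are made from this cluster alone were selected by name from the 2588 mature human miRNAs of the table: hsa-miR-106a-5p and hsa-miR-106a-3p, hsa-miR-18b-5p and hsa-miR-18b-3p, hsa-miR-20b-5p and hsa-miR-20b-3p, hsa-miR-19b-2-5p, hsa-miR-92a-2-5p, and hsa-miR-363-3p and hsa-miR-363-5p. miRNA sequencing was performed in Huh7, a human hepatoma cell line, after transient transfection by lipofection. In 3 samples the plasmid expressed the circular RNA hsa_circ_0098181 and in the other 3 it was the control plasmid, and total RNA was collected at 48 h in both groups. All samples were cultured with 10% serum. The study asked which miRNAs respond to this circRNA and followed miR-18a-3p, whose counterpart in the miR-106a-363 cluster is miR-18b-3p. Nothing in the labels says whether the 3 samples of a group were separate cultures, so that the p-values measure the spread between these samples, which may be technical.

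A miRNA hairpin is cut by Drosha and Dicer into a short duplex, and usually a single strand of it, the guide, is kept by an Argonaute protein while the other, the passenger, is degraded. Bases 2 to 8 of the guide, the seed, pair with target mRNAs, so that miRNAs with the same seed share predicted targets. The miR-106a-363 cluster is a paralog of miR-17-92 (oncomiR-1, in the host gene MIR17HG on chromosome 13) and of miR-106b-25 (in MCM7). The miR-17-92 cluster is induced by MYC, promotes proliferation and is frequently high in liver cancer, whereas miR-106a-363 is better known from embryonic cells and T-cell leukaemias. In the paralogs, miR-17, miR-20 and miR-106 restrain the cell cycle inhibitor CDKN1A and E2F factors.

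In GENCODE release 29 (GRCh38), the cluster occupies 901 bases of the minus strand of chromosome X. In the direction of transcription it begins with MIR106A (134170198 to 134170278), followed by MIR18B (134170041 to 134170111), MIR20B (134169809 to 134169877), MIR19B2 (134169671 to 134169766), MIR92A2 (134169538 to 134169612) and MIR363 (134169378 to 134169452). All 6 hairpins lie within an exon of the single annotated transcript of the non-coding host gene AC002407.1 (ENSG00000283638.2, 134168911 to 134174089). MIR19B2 and MIR92A2 also give miR-19b-3p and miR-92a-3p, which have the same sequence as the products of MIR19B1 and MIR92A1 in miR-17-92. Reads of these 2 miRNAs cannot be told apart by locus, and they are therefore not among the 10.

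The 4 members that were counted in every library are shown with their counterparts in miR-17-92. The closeness of some of these sequences bears on how the counts below can be read. The sequences are from RefSeq (GRCh38.p14), which held 9 of the 10 members, and the capitals mark the seed.
miR-106a-5p: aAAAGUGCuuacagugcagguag
miR-17-5p: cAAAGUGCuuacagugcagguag
miR-20b-5p: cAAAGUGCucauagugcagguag
miR-20a-5p: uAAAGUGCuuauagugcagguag
miR-18b-5p: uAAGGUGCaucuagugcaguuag
miR-18a-5p: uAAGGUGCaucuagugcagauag
miR-363-3p: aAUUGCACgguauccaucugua
miR-92a-3p: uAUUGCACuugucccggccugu
The shared seeds group them into the miR-17 family (AAAGUGC), the miR-18 family (AAGGUGC) and the miR-25/92 family (AUUGCAC). With positions counted from the 5′ end and the base of the member given first, miR-106a-5p differs from miR-17-5p by A1C alone. miR-18b-5p differs from miR-18a-5p by U20A alone. miR-20b-5p differs from miR-20a-5p by C1U and C10U, and is equally close to miR-17-5p, with C10U and U12C. miR-363-3p shares the seed of miR-92a-3p but differs from it at 12 of its bases, and its nearest miRNA of the same length, miR-367-3p, differs at 8. How reads with a mismatch or with several matches were assigned to miRNAs is not given in the sources used here. The counts of miR-106a-5p, miR-18b-5p and miR-20b-5p are therefore uncertain beyond their counting error, and the part of such reads in them was not tested.

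Each library held 7144798 to 10786295 counts. Values are given in TPM as deposited, which is the count scaled to a fixed total per library with no length term. Each read stands for a whole mature miRNA of 22 or 23 bases, so that no length correction is needed between members. The liver marker miR-122-5p was the most abundant miRNA, with 306227 to 338897 TPM. All 8 markers of pluripotent cells, which include miR-302a-3p and miR-372-3p, had 0 counts in every library. The 6 markers of blood cells summed to 13.3 to 14.8 TPM with hsa_circ_0098181 and 17.2 to 19.5 TPM in the controls. Most of this was miR-142-3p, with means of 9.23 TPM with hsa_circ_0098181 and 14.1 TPM in the controls. On average miR-451a and miR-144-3p were also lower with hsa_circ_0098181, while miR-223-3p, miR-150-5p and miR-142-5p were higher. The part of these markers in the results below was not tested. Markers of muscle and neurons summed to 4.26 to 5.79 TPM. A summed level of 3911 to 4425 TPM was found for 4 markers of stroma and endothelium, nearly all of it miR-126. The libraries of the control group were not alike. Across 308 abundant miRNAs, control replicates 1 and 2 differed by a median of 0.077 on the log2 scale regardless of sign. They differed by 0.23 and 0.22 from control replicate 3. Between the groups, control replicate 3 differed by 0.15, 0.22 and 0.19 from replicates 1 to 3 with hsa_circ_0098181. Control replicates 1 and 2 differed from those samples by 0.14 to 0.19. The results below are also given without control replicate 3, which was singled out from these same data.

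The miR-106a-363 cluster was counted at low levels in these cells. Of the 10 members, 4 were counted in every library, 2 had 1 count over all 6 libraries and 4 had no count at all. Together the members had 95, 119 and 150 counts in replicates 1 to 3 with hsa_circ_0098181 and 144, 161 and 115 counts in control replicates 1 to 3. This sum was 14.7 ± 3.14 TPM (SD, n = 3) with hsa_circ_0098181 and 16.0 ± 2.60 TPM (SD, n = 3) with the control plasmid, and the groups overlapped. miR-20b-5p made up 61.7% of the 784 member counts over all libraries. These sums hold for the counts as deposited, in which those of miR-20b-5p, miR-106a-5p and miR-18b-5p may include reads of a counterpart.

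**Figure D1:**
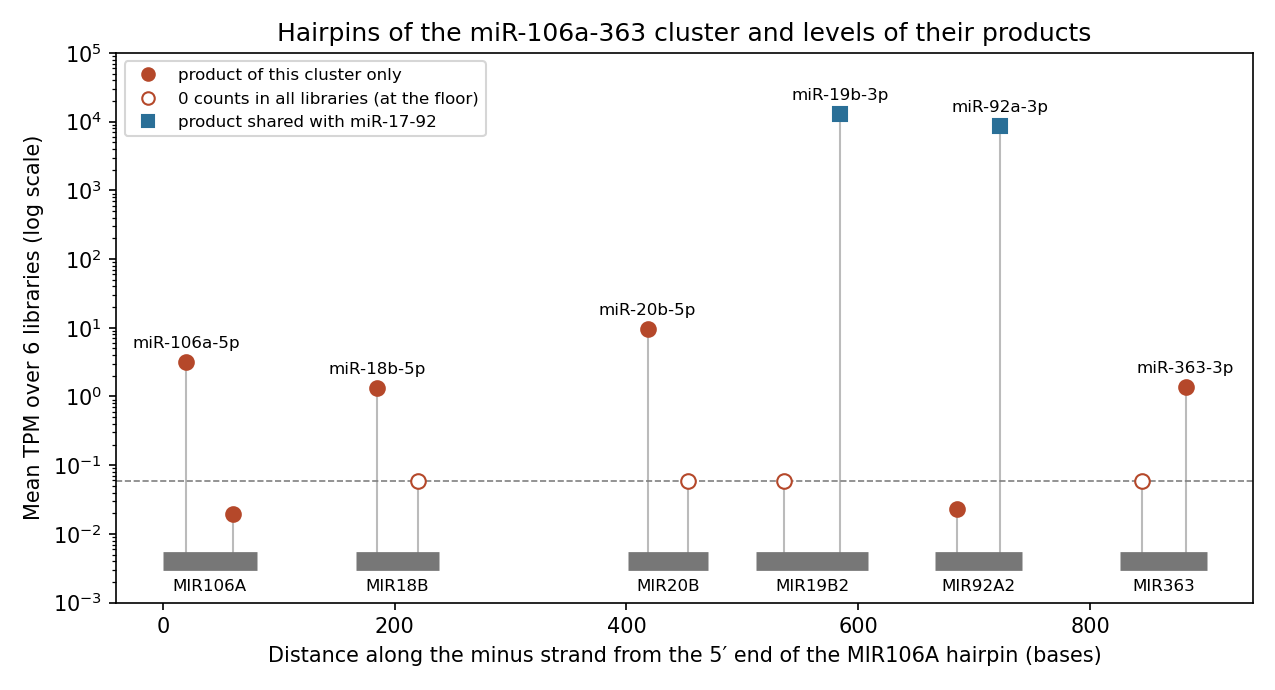
The 6 hairpins of the miR-106a-363 cluster (grey bars, to scale, x axis in bases from the 5′ end of MIR106A) with the mean TPM of each arm over all 6 libraries (y axis, log scale), where the place of an arm within its hairpin is schematic, with the 5p arm first. Filled circles are members with a count, open circles are members with 0 counts drawn at the floor of 3 counts (0.0584 TPM, dashed line), and squares are the products shared with miR-17-92. The 4 counted arms lie between 1.31 and 9.47 TPM, far below both shared products, and the unlabelled filled circles under the line are the members with 1 count.

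By the level of each arm, hsa-miR-20b-5p, a miR-17 family guide, was the most abundant member. It was counted 64, 74 and 104 times in replicates 1 to 3 with hsa_circ_0098181 and 88, 89 and 65 times in control replicates 1 to 3, which is 8.02, 8.74 and 12.5 TPM and 8.16, 10.3 and 9.10 TPM. The replicate 3 with hsa_circ_0098181 stood highest, while its other replicates lay within the range of the controls or just under it. hsa-miR-106a-5p, of the same seed family, was counted 17, 21 and 22 times with hsa_circ_0098181 and 30, 41 and 29 times with the control plasmid. In TPM it was 2.13, 2.48 and 2.65 against 2.78, 4.73 and 4.06, so that every sample with hsa_circ_0098181 lay below every control, by a narrow margin against control replicate 1. On this scale the groups did not overlap for 101 of 552 tested miRNAs (18.3%), of which 90 (16.3%) were lower with hsa_circ_0098181.

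hsa-miR-18b-5p, which shares the miR-18 seed, was counted 5, 12 and 9 times with hsa_circ_0098181 and 14, 19 and 9 times with the control plasmid, or 0.627, 1.42 and 1.09 TPM against 1.30, 2.19 and 1.26 TPM. The groups overlapped, with the lowest value in replicate 1 with hsa_circ_0098181 and the highest in control replicate 2. hsa-miR-363-3p, the guide at the 3′ end of the cluster and a member of the miR-25/92 seed family, was counted 9, 12 and 15 times with hsa_circ_0098181 and 12, 11 and 11 times with the control plasmid. This was 1.13, 1.42 and 1.81 TPM against 1.11, 1.27 and 1.54 TPM, again with overlap. For counts of this size the counting error alone is wide, since the exact 95% Poisson interval of 5 counts is 1.62 to 11.7 counts and that of 12 counts is 6.20 to 21.0 counts. No molecular identifiers are named, so that intervals and floors cover counting error only.

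The order of the members was the same in every library at the top but not at the bottom. miR-20b-5p was above miR-106a-5p in 6 of 6 libraries, by 2.17- to 4.73-fold. miR-106a-5p was above miR-18b-5p and above miR-363-3p in 6 of 6 libraries each. miR-18b-5p and miR-363-3p did not separate, since miR-18b-5p was higher in 2 libraries, equal in 1 and lower in 3.

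**Figure D2:**
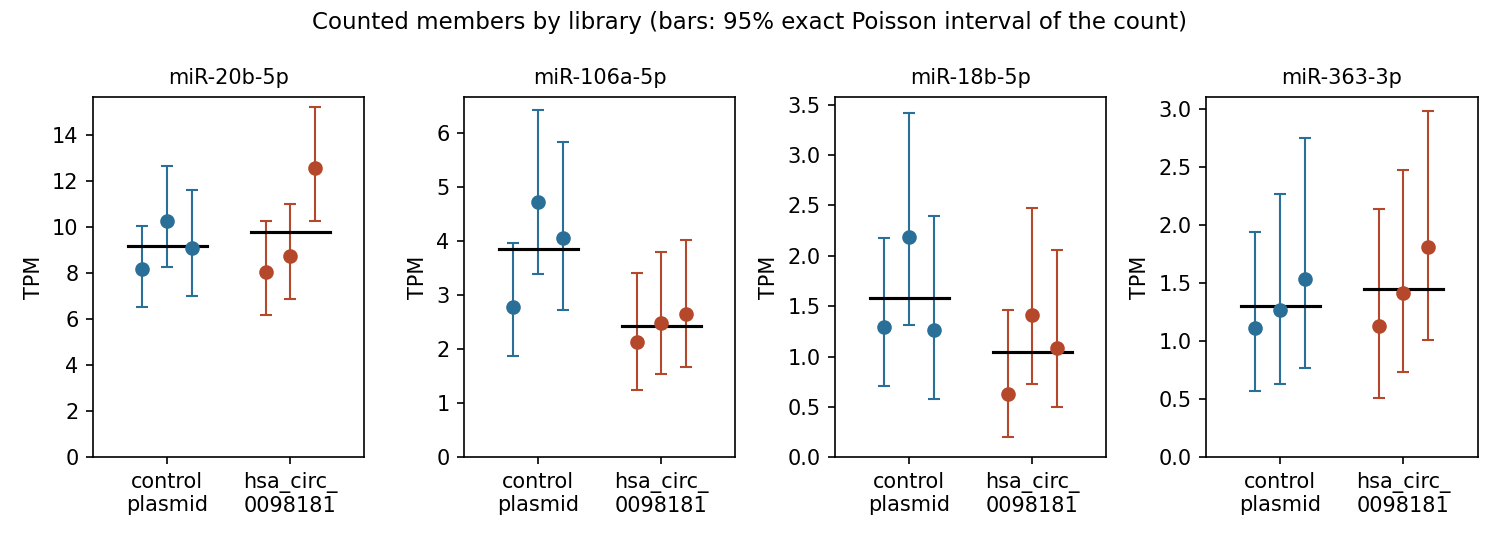
TPM (y axis, linear, from 0) of the 4 members counted in every library, with each library as a point, its exact 95% Poisson interval as a bar and the group mean as a black line. The groups overlap for miR-20b-5p, miR-18b-5p and miR-363-3p, and all 3 samples with hsa_circ_0098181 lie below the controls for miR-106a-5p, where the intervals of single libraries overlap.

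The other arms were nearly absent. miR-18b-3p, miR-20b-3p, miR-19b-2-5p and miR-363-5p had 0 counts in all 6 libraries, which at 51345062 counts in total allows a level of up to 0.0584 TPM over the 6 libraries. miR-106a-3p had 1 count, in control replicate 2, and miR-92a-2-5p had 1 count, in control replicate 3. For these 6 members the depth was too low to show any change between the groups. miR-18b-3p is the counterpart of miR-18a-3p, which had 400 to 533 counts in each library.

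These zeros still bear on arm use. Over all libraries, miR-20b-5p had 484 counts against 0 for miR-20b-3p and its count was at least 161-fold higher, taking 3 counts over the 6 libraries as the floor. For miR-20b, miR-18b and miR-106a this holds for the counts as deposited and is no lower bound for the miRNA itself, since the 5p count may hold reads of a counterpart. The counterpart pair miR-20a-5p and miR-20a-3p stood at 270 to 1. The count of miR-18b-5p was at least 22.7-fold higher than that of miR-18b-3p. miR-18a-5p stood at 17.6 to 1 over miR-18a-3p, with 13.6 to 23.5 in single libraries, a range that holds the bound for miR-18b. miR-363-3p was at least 23.3-fold higher than miR-363-5p. miR-106a-5p stood at 160 to 1 over miR-106a-3p, with an exact 95% interval of 28.3 to 6359, whereas miR-17-5p stood at 13.2 to 1 over miR-17-3p, with 9.34 to 16.2 in single libraries. In the counts as deposited, the 5p arm dominated for miR-106a, miR-18b and miR-20b, with the limit given above, and the 3p arm dominated for miR-363. The ratios of the arms of the members could not be compared between the groups, because none of the member hairpins had both arms counted in every sample.

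The paralog cluster miR-17-92 was abundant in the same libraries. Its 10 private products summed to 17711 to 24441 TPM, 1337 times the sum of the members on average, and 8 of these 10 had a higher mean than miR-20b-5p. The 2 shared products had 12797 TPM (miR-19b-3p) and 8646 TPM (miR-92a-3p) on average, with no way to assign them to a locus. miRNAs on the same stretch of the X chromosome were counted as well. The cluster of miR-424, miR-503, miR-542 and miR-450a lies 369906 bases from MIR106A, on the same strand. Of its 11 products, 10 were counted in every library and 9 had a higher mean than miR-20b-5p, led by miR-424-5p with 396 TPM. The sum of this neighbour was 954 to 1286 TPM, on average 71.5 times that of the members.

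Set against its own counterpart, each member was a trace. Over all libraries miR-106a-5p had 0.160% of the counts of miR-17-5p and miR-18b-5p had 0.146% of those of miR-18a-5p, the pairs that differ by 1 base. miR-20b-5p had 0.0628% of the counts of miR-20a-5p, from which it differs by 2 bases, and miR-363-3p had 0.0160% of those of miR-92a-3p. This last pair is matched by seed alone. Its denominator is a shared product that MIR92A2 in the miR-106a-363 cluster also gives, so it does not compare separate loci. Within seed families the members contributed little. miR-20b-5p and miR-106a-5p together held 0.0230% to 0.0332% of the miR-17 family counts, in which miR-93-5p took 62.1% and miR-20a-5p took 32.8% over all libraries. miR-18b-5p held 0.0761% to 0.219% of the miR-18 family, and miR-363-3p held 0.00285% to 0.00447% of the miR-25/92 family, in which miR-25-3p took 77.4%.

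These ratios do not depend on the library size, and they were compared between the groups by a two-sided exact permutation test, which cannot go below 0.1 with 3 samples against 3, with adjustment over the 4 ratios. miR-106a-5p was 0.120%, 0.168% and 0.162% of miR-17-5p in replicates 1 to 3 with hsa_circ_0098181 and 0.122%, 0.203% and 0.193% in control replicates 1 to 3. The groups overlapped, and the log2 ratio was lower by 0.17 with hsa_circ_0098181, at -9.36 ± 0.265 against -9.19 ± 0.400 (SD, n = 3 each, exact permutation test p = 0.5, adjusted p = 1). miR-20b-5p was 0.0577%, 0.0671% and 0.0852% of miR-20a-5p with hsa_circ_0098181 and 0.0487%, 0.0605% and 0.0655% with the control plasmid. Its log2 ratio differed by 0.26 (exact permutation test p = 0.4, adjusted p = 1), which was about the spread between samples of a group (SD 0.282 and 0.223).

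For miR-18b-5p to miR-18a-5p the difference of the log2 ratio was -0.070 (exact permutation test p = 1, adjusted p = 1), against an SD of 0.735 in the samples with hsa_circ_0098181. For miR-363-3p to miR-92a-3p it was 0.0075 (exact permutation test p = 1, adjusted p = 1). The direction of both of these turned when single samples were left out. With a smallest possible p of 0.1 these tests could not have passed the threshold, and they do not show that the ratios were alike. Without control replicate 3, the difference was -0.071 for miR-106a-5p, 0.35 for miR-20b-5p, -0.063 for miR-18b-5p and 0.0034 for miR-363-3p.

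**Figure D3:**
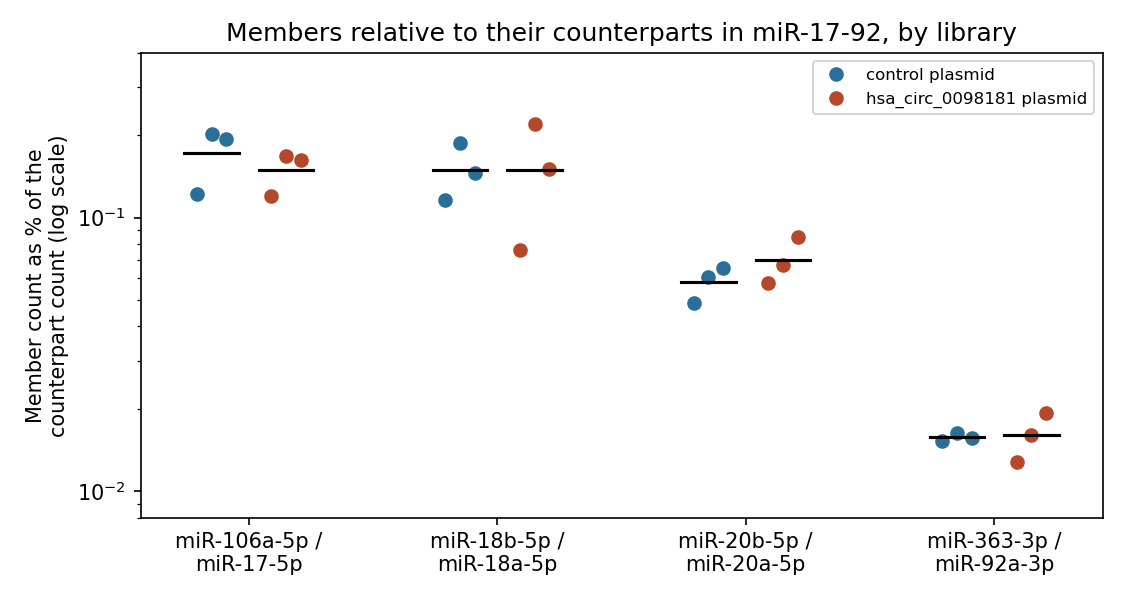
Count of each member as a percentage of the count of its miR-17-92 counterpart in the same library (y axis, log scale), with points for the 3 libraries of a group and a line for the group mean. For miR-363-3p the counterpart is miR-92a-3p, a shared product that MIR92A2 in this cluster also gives. The pairs that differ by 1 base lie between 0.0761% and 0.220%, miR-20b-5p lies between 0.0487% and 0.0852% and miR-363-3p under 0.0193%, and the groups overlap in every pair.

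The groups were then compared over all miRNAs with edgeR's quasi-likelihood test, TMM factors and Benjamini-Hochberg adjustment over all miRNAs tested. The filter on low counts kept 552 miRNAs, among them the 4 members counted in every library. No member had an adjusted p under 0.05, and neither did any other of the 552 miRNAs (0%), while 0 members and 50 of the 552 (9.06%) had an unadjusted p under 0.05, of which 26 (4.71%) were lower with hsa_circ_0098181. DESeq2 also called 0 miRNAs, with 41 at an unadjusted p under 0.05. Of the 4 members, 2 were higher and 2 were lower with hsa_circ_0098181, with a median log2 fold change of -0.13 beside 0.0038 for all miRNAs tested.

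miR-106a-5p had the member change of greatest size, where edgeR gave -0.53 on the log2 scale (SE 0.28, 95% interval -1.14 to 0.073, adjusted p = 0.568). On the scale of TMM-normalized CPM its highest value with hsa_circ_0098181 was 2.74 and its lowest control 2.77, so that the groups did not overlap, as for 85 of the 552 miRNAs (15.4%), of which 36 (6.52%) were lower. For miR-18b-5p edgeR gave -0.47 (SE 0.43, 95% interval -1.41 to 0.46, adjusted p = 0.702). For miR-20b-5p it gave 0.21 (SE 0.20, 95% interval -0.21 to 0.63, edgeR adjusted p = 0.703), and for miR-363-3p 0.29 (SE 0.37, 95% interval -0.51 to 1.09, edgeR adjusted p = 0.790). All 4 intervals contain 0. Single libraries moved these values, and without replicate 3 with hsa_circ_0098181 those of miR-20b-5p and miR-363-3p were 0.0043 and 0.12 (edgeR adjusted p = 0.999 and 0.972). Those of miR-106a-5p and miR-18b-5p were -0.35 and -0.18 without control replicate 2 (edgeR adjusted p = 0.836 and 0.953), and that of miR-18b-5p was -0.20 without replicate 1 with hsa_circ_0098181 (edgeR adjusted p = 0.911).

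Without control replicate 3, edgeR called 56 of 565 miRNAs (9.91%), of which 38 (6.73%) were lower, and again 0 of the 4 members. This fit kept control replicates 1 and 2 as its only controls. The log2 fold changes of the members were then -0.53 for miR-106a-5p, -0.63 for miR-18b-5p, 0.16 for miR-20b-5p and 0.36 for miR-363-3p, with adjusted p of 0.384, 0.498, 0.691 and 0.725 from edgeR. With the library size alone in place of TMM, the median of all tested miRNAs moved to -0.11, and miR-106a-5p had a log2 fold change of -0.65 with an unadjusted p of 0.0408 and an adjusted p of 0.353 from edgeR. In that fit 70 of 552 miRNAs (12.7%) had an unadjusted p under 0.05, of which 69 (12.5%) were lower.

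Among the paralogs and neighbours, whose lists were chosen with earlier results known, no product was called with all 6 libraries. Of the 9 tested private products of miR-17-92, 6 were lower and 3 higher, with a median log2 fold change of -0.16. The counterparts had values of -0.34 for miR-17-5p, -0.42 for miR-18a-5p and -0.082 for miR-20a-5p, with adjusted p of 0.295, 0.306 and 0.772 from edgeR. The shared products had -0.12 for miR-19b-3p and 0.24 for miR-92a-3p, with adjusted p of 0.799 and 0.421 from edgeR. For the 6 products of miR-106b-25 the median was 0.10, and for the 10 tested Xq26 neighbours it was -0.017.

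Control replicate 3 was singled out from these same data, so the p-values without it leave out the spread that it adds among the controls. Leaving out any other single sample gave 0 called miRNAs. Without control replicate 3, 9.91% of all tested miRNAs were called and 6.73% were called lower. In that fit 4 of the 9 private products of miR-17-92 were called, all lower. Among them were miR-17-5p (-0.44), miR-18a-5p (-0.59) and miR-20a-5p (-0.22), with adjusted p of 9.01e-06, 1.96e-07 and 0.0103 from edgeR. Both shared products were called in opposite directions, with -0.36 for miR-19b-3p and 0.32 for miR-92a-3p (adjusted p = 2.35e-05 and 0.000136 from edgeR). Of the Xq26 neighbours 3 of 10 were called, all lower, and of miR-106b-25 2 of 6, with 1 lower. The members miR-106a-5p and miR-18b-5p had -0.53 and -0.63 in that fit, with confidence intervals of -1.19 to 0.12 and -1.61 to 0.35.

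**Figure D4:**
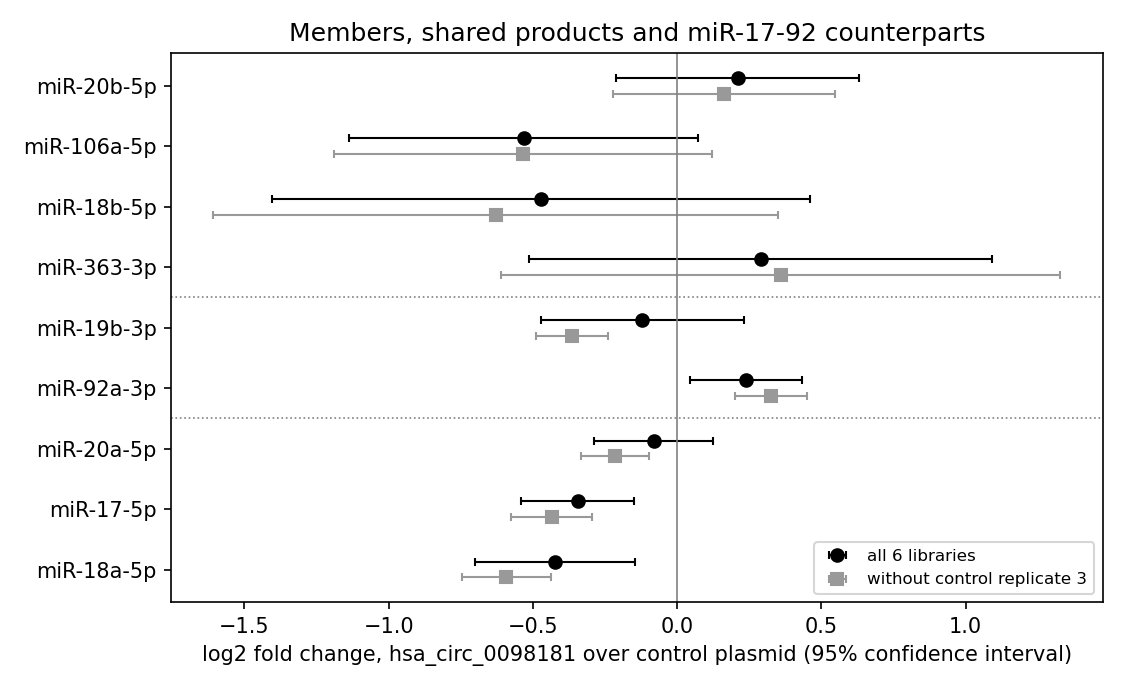
Log2 fold change of hsa_circ_0098181 over control plasmid (x axis) with its 95% confidence interval from edgeR, with all 6 libraries (black circles) and without control replicate 3 (grey squares). The 4 members at the top have intervals that contain 0 in both fits, from -1.41 to 1.09 with all 6 libraries, and are wider than those of the abundant shared products (middle) and counterparts (bottom).

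Across the 6 libraries the members did not form a single profile. In log2 of TMM-normalized CPM, Pearson's r over 6 samples was 0.78 between miR-106a-5p and miR-18b-5p, 0.82 between miR-20b-5p and miR-363-3p, and 0.0095 to 0.29 in the other 4 pairs. The members were then left out of the 552 tested miRNAs, and the rest were ranked by likeness to miR-20b-5p. Highest were miR-4518 (r = 0.94), miR-30c-2-3p (r = 0.91) and miR-375 (r = 0.91), again over 6 samples, and none of these belongs to the paralog clusters. Being the highest of so many, these values are raised by the selection itself. miR-4518 had only 14 to 30 counts per library. These are descriptions of 6 libraries that share a scaling, and at such counts a correlation carries much counting error.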

How the data were processed

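The 6 miRNA libraries of Huh7 cells were grouped by their titles. The authors deposited raw counts of reads per mature miRNA. TPM values were deposited beside them, and rescaling each count by its sample's sum gave them back to within 0.00303. The submitters' processing notes name hg38, Bowtie and TopHat2 2.0.9, with no role. Trimming, miRNA annotation, mismatches and the handling of reads with several matches are not given in the sources used here.

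The test on counts was run in edgeR 4.0.16 under R 4.3.3 (filterByExpr with a minimum count of 10 and a minimum total of 15, TMM factors, two-sided quasi-likelihood test on group without covariates, Benjamini-Hochberg adjustment over all miRNAs tested, threshold 0.05). Standard errors were derived from the F statistic. The script was tested on simulated data. Ratios to the counterpart were computed from counts with 0.5 added to each, where both miRNAs had a count in every sample, and compared by an exact permutation test. The floor was 3 counts. The alternatives tried were other filters, DESeq2 1.42.0, upper-quartile factors or no factors, the replicate number as a block, an added count of 5 for ratios, and leaving out each sample. Sequences and hairpins came from RefSeq (GRCh38.p14) and GENCODE release 29 (GRCh38).

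The miRNAs named were the 10 members, the shared products, the counterparts, members of their seed families, the 3 miRNAs most like the most abundant member, and the leading members of the lists. The members and lists were chosen with earlier results of these data known. No library was a duplicate of another, since chi-square per degree of freedom was 15.2 to 132 within groups. The total per sample was 7144798 to 10786295 counts.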

Additional observations from a re-analysis of the deposited data

How the results depend on the processing

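The number of called members was 0 under all 12 alternatives. The number of called miRNAs, 0 in the reported fit (50 before adjustment), was 3 when scaling by library size only and 6 when no filter was applied. It ranged from 0 to 56 when a sample was left out, where 56 was the fit without control replicate 3 and the other 5 fits gave 0. The causes were not tested. The log2 fold changes of the tested members kept their direction in all 46 refits, from -0.73 to -0.35 for miR-106a-5p, -0.79 to -0.18 for miR-18b-5p, 0.0043 to 0.35 for miR-20b-5p and 0.12 to 0.45 for miR-363-3p, with adjusted p between 0.353 and 0.999. With at least 10 counts in every sample, miR-18b-5p and miR-363-3p were not tested.

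The log2 ratio of miR-18b-5p to miR-18a-5p, -0.070, became 0.13 with an added count of 5 and ranged from -0.40 to 0.33 with a sample left out (0.33 without replicate 1 with hsa_circ_0098181, 0.096 without control replicate 2). That of miR-363-3p to miR-92a-3p, 0.0075, became -0.0010 with an added count of 5 and ranged from -0.13 to 0.15 with a sample left out (-0.13 and -0.0022 without replicates 3 and 2 with hsa_circ_0098181, -0.017 without control replicate 1). The cause was not tested. The other ratios kept their direction, from -0.40 to -0.018 for miR-106a-5p and from 0.11 to 0.39 for miR-20b-5p. The ratios of the arms gave no value.

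Whether same replicate numbers mark paired samples was not settled. Their deviations from the group means across 308 abundant miRNAs correlated at -0.21, 0.19 and 0.12. Different replicate numbers gave -0.29 to 0.27, so these values can neither show nor exclude pairing. With the replicate block, 0 miRNAs and 0 members were called (42 at an unadjusted p under 0.05), and the log2 fold changes were -0.54 for miR-106a-5p, -0.49 for miR-18b-5p, 0.19 for miR-20b-5p and 0.26 for miR-363-3p. The counts of 5 to 104 per library limit what can be seen of the members.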
